A study of Homo sapiens with 12 samples.

Results

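Animal cells make cholesterol from acetyl-CoA through mevalonate, isopentenyl diphosphate and squalene, and the enzymes of that route are regulated together. When sterols run low in the endoplasmic reticulum, the escort protein SCAP carries the transcription factor SREBP2 to the Golgi for cleavage, and the freed factor switches on the genes of synthesis and uptake. INSIG1 holds the complex back when sterols are plentiful, and cells grown in serum also take up cholesterol from lipoproteins.

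The genes described here are 8 listed genes of this route, chosen by symbol: the enzyme genes HMGCS1, IDI1, FDFT1, SQLE, LSS and MSMO1, and the regulators INSIG1 and SREBF2. Of these 8, 7 had a probe set with that single gene symbol, among 11963 genes named on the array, and FDFT1 was not analysed here. The 7 genes had 16 probe sets, of which 14 were bright enough to be tested, and no gene among the 8 encodes an uptake receptor. The arrays came from 5 established human melanoma cell lines (Malme3M, SkMel-1, SkMel-5, SkMel-19 and SkMel-28), all with BRAFV600E, a mutant RAF kinase that drives the MEK and ERK kinases. Each line was grown in RPMI 1640 with 10% fetal bovine serum to 70% confluency and kept for 8 h with 250 nM PLX4032 (vemurafenib), an inhibitor of RAF kinases, or with 0.1% DMSO, its solvent. SkMel-19 and Malme3M were also treated with 1000 nM PLX4032, which gives 5 arrays with DMSO, 5 with 250 nM and 2 with 1000 nM. Every line is 1 array at each dose and nothing tells of separate cultures, so the p-values measure the spread between lines and not between cultures of a line.

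The arrays had similar scales, with median signals between 102.5 and 130.4. The ratio of 3′ to 5′ control probe sets, a sign of RNA integrity, lay between 0.868 and 1.00 for GAPDH and between 1.01 and 1.13 for ACTB over the 12 arrays. All 7 measured melanocyte markers of 8 listed passed the level filter, with a summed signal of 31538 to 61474 with DMSO, 41528 to 65657 at 250 nM and 63034 to 63384 at 1000 nM. Of the other cell markers, 2 of 8 fibroblast, 2 of 6 measured blood, 3 of 8 keratinocyte or epithelial and 0 of 6 endothelial markers passed. The summed signals of fibroblast markers were 628.2 to 2076 at 250 nM and 640.1 to 1769 with DMSO. Those of blood markers were 170.6 to 13279 at 250 nM and 133.9 to 12236 with DMSO. Keratinocyte or epithelial markers summed to 3085 to 7339 at 250 nM and 2881 to 7092 with DMSO. The highest blood sums were mostly CD74 in SkMel-28, at 11995.5 with DMSO and 13027.3 at 250 nM, while PTPRC was at most 21.3 on any array. Among the melanocyte markers, TYRP1 was only 18.7 with DMSO and 27.6 at 250 nM in SkMel-1. Of the 7 melanocyte markers, 1 was called higher and 0 lower at 250 nM. One marker outside the melanocyte list, KRT18, fell at 250 nM (log2 fold change -0.77, limma adjusted p = 0.00741), and its part in any result below was not tested. All 7 genes listed as a readout of ERK signalling, among them the phosphatase gene DUSP6, fell at 250 nM, with a median log2 fold change of -3.29. Of all genes tested, 13.1% were called lower. The list was chosen with earlier results of these data known and is no independent check.

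After 8 h with 250 nM PLX4032, 3 enzyme genes of cholesterol synthesis fell: MSMO1 by 1.81-fold, SQLE by 1.59-fold and IDI1 by 1.29-fold (n = 5 lines). HMGCS1 and INSIG1 had lower means that did not pass the test, LSS had a higher mean that did not pass, and SREBF2, the gene of the SREBP2 factor, was near its DMSO level. Of the 7 genes tested, 3 were called lower and 0 higher at a limma adjusted p under 0.05. Among all 7178 genes tested 28.3% were called, 13.1% lower and 15.2% higher. At an unadjusted p under 0.05 there were 6 of the 7, 5 lower and LSS higher, against 41.4% of all genes. The median log2 fold change of the 7 was -0.37, against 0.03 over all genes. RNA was taken from whole cultures, so fewer cells expressing a gene and less RNA per cell cannot be told apart.

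The promoters of these genes are shown because 3 of the genes fell together, though no window was found for SQLE, which was among the 3. The windows are the 250 bases before an annotated start, from RefSeq on GRCh38.p14, written 5′ to 3′ on the strand of the gene. They were found for 6 of the 7 measured genes, 9 windows in all, with 2 starts for HMGCS1 and 3 for IDI1. Capitals mark CCAAT on either strand (ATTGG on the reverse), the core of the CCAAT box, and TCACNCCAC on either strand, the letters of a sterol regulatory element. For HMGCS1 and IDI1 the window printed is the one with the most CCAAT matches. The windows shown lie at chr4:165327419-165327668 (MSMO1, plus strand), chr10:1048887-1049136 (IDI1, minus), chr5:43313413-43313662 (HMGCS1, minus), chr7:155297628-155297877 (INSIG1, plus), chr21:46228775-46229024 (LSS, minus) and chr22:41832855-41833104 (SREBF2, plus).
MSMO1: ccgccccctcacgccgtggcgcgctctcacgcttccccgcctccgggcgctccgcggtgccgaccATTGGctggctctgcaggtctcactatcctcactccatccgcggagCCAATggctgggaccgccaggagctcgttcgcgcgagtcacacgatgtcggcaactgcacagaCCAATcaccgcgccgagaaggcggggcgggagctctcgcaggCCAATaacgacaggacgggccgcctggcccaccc
IDI1: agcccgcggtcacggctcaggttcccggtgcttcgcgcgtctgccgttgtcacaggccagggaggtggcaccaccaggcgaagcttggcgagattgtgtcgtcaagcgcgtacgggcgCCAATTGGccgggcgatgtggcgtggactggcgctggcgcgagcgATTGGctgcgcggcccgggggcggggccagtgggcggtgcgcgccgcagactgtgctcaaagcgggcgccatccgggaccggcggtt
HMGCS1: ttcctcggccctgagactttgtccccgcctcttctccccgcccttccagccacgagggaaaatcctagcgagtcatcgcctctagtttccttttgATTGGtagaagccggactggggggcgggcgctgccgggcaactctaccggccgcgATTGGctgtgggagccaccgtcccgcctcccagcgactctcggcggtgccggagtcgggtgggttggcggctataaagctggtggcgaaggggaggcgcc
INSIG1: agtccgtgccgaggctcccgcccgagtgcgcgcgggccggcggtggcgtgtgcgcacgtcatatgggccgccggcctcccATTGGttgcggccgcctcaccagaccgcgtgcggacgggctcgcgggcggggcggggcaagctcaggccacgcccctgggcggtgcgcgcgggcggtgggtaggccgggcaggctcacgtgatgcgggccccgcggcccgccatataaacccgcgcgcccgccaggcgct
LSS: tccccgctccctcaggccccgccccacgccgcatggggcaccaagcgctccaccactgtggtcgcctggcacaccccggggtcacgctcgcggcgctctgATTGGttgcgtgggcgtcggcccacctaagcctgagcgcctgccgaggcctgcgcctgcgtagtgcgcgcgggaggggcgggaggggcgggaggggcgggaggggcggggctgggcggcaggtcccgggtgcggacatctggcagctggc
SREBF2: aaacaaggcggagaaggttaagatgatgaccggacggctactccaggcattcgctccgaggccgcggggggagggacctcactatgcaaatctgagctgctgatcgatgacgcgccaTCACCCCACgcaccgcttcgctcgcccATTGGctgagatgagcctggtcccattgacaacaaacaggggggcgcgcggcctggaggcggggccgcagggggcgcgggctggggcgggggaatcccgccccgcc

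The MSMO1 window holds CCAAT 4 times, at 185, 139, 76 and 34 bases before the start. In the IDI1 window it occurs 3 times, at 132, 129 and 87 bases, and the matches at 132 and 129 overlap each other on opposite strands. The HMGCS1 window has matches at 155 and 100 bases, and INSIG1, LSS and SREBF2 have 1 each, at 170, 150 and 106 bases. CCAAT was in 7 of the 9 windows, including LSS and SREBF2, which were not called lower, and 1 start each of HMGCS1 and IDI1 had none. Of 35116 promoter windows of the same length, 32% hold CCAAT. TCACNCCAC was in 1 of the 9 windows, that of SREBF2, at 133 bases, against 0.883% of all windows. GGGCGG, the letters of a GC box, was in all 9 windows and in 42.6% of all windows, on either strand, and is not capitalised. The 9 windows are not independent, since some starts of HMGCS1 and of IDI1 have overlapping windows. The shares are over all annotated windows and not over the genes tested here. The motifs were chosen with earlier results known, and enrichment was not tested. These matches describe letters only, and no binding was measured.

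**Figure D1:**
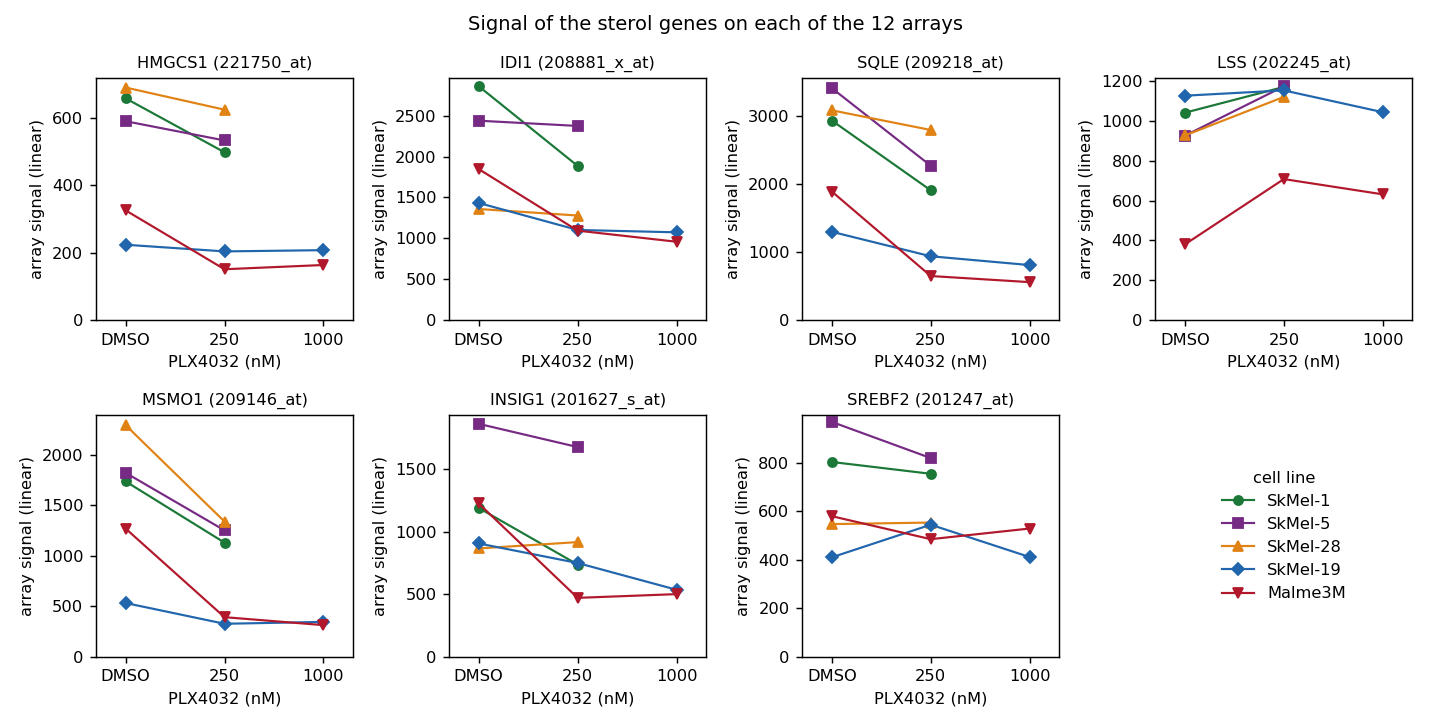
Signal of each of the 7 measured genes on a linear axis from 0, 1 panel per gene, for the probe set that represents it, with 1 coloured line per cell line and the doses of PLX4032 on the horizontal axis. MSMO1, SQLE and IDI1 were lower at 250 nM than with DMSO in all 5 lines, LSS was higher in all 5, and SREBF2 lay on both sides of its DMSO level.

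HMGCS1, the cytosolic synthase that joins acetyl-CoA and acetoacetyl-CoA into HMG-CoA, starts the part of the route that leads to mevalonate. Its brighter probe set, 221750_at, had signals at 250 nM of 499 in SkMel-1, 534 in SkMel-5, 625.2 in SkMel-28, 204 in SkMel-19 and 151 in Malme3M, against 659, 591, 691, 224 and 326 with DMSO in the same lines. Every line was lower at 250 nM, the ranges of the groups overlapped, and Malme3M had the largest difference (log2 -1.05) while the other lines lay between -0.39 and -0.13. The mean difference was -0.37 (SE 0.14, limma adjusted p = 0.078), which did not pass the test, and without Malme3M it was -0.20.

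The other HMGCS1 probe set, 205822_s_at, gave another picture. With the lines in the same order it read 417, 621, 185, 115.5 and 156 at 250 nM, against 281, 675, 153, 138 and 257 with DMSO. It was thus higher at 250 nM in SkMel-1 and SkMel-28 and lower in the other 3 lines, with a mean log2 difference of -0.04 (SE 0.16, limma adjusted p = 0.862 over all probe sets). The probe sets of HMGCS1 correlated at 0.50 over the 12 arrays after the mean of each line was subtracted, the lowest value between any pair of tested probe sets of 1 gene.

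IDI1, the isomerase that converts isopentenyl diphosphate into dimethylallyl diphosphate, fell modestly. Its probe set 208881_x_at read 1886 in SkMel-1, 2375 in SkMel-5, 1279 in SkMel-28, 1102.5 in SkMel-19 and 1094 in Malme3M at 250 nM, against 2861, 2439, 1359, 1433 and 1848 with DMSO. All 5 lines were lower, by as little as -0.04 on the log2 scale in SkMel-5 and -0.09 in SkMel-28 and by as much as -0.75 in Malme3M, and the ranges of the groups overlapped. On average the log2 change came to -0.37 (SE 0.11, limma adjusted p = 0.0349). The call did not hold when 1 line was left out, for 3 of the 5 lines: the adjusted p was 0.104 without SkMel-1, 0.0863 without SkMel-19 and 0.103 without Malme3M. Nor did it hold with no filter on low signal (0.0571) or with no trend in the prior variance (0.057). The second probe set, 204615_x_at, followed the first closely (r = 0.997, 12 arrays, line means subtracted) and fell by 0.40 on the log2 scale (limma adjusted p = 0.032), a call lost without the same 3 lines (0.0832 to 0.0983) and under both of those settings. The _x_at suffix marks probe sets that may also read other transcripts.

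SQLE encodes squalene epoxidase, which adds the first oxygen to squalene and is a rate-limiting step of the later part of the route. Its signals at 250 nM were 1908 in SkMel-1, 2269 in SkMel-5, 2795 in SkMel-28, 938 in SkMel-19 and 648 in Malme3M, against 2934, 3409.9, 3083.5, 1298 and 1890.3 with DMSO (209218_at). The group ranges overlapped, but each line was lower at 250 nM than with DMSO, from log2 -0.14 in SkMel-28 to -1.53 in Malme3M. SQLE fell by 0.67 on the log2 scale (SE 0.16, limma adjusted p = 0.0169), and by 0.45 without Malme3M (limma adjusted p = 0.0133).

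The other SQLE probe sets moved the same way in every line. With the lines in the same order, the dimmer 213562_s_at read 266, 379, 448, 164 and 86.5 at 250 nM, against 559, 616, 492, 254 and 327 with DMSO. Its mean log2 change came to -0.85 (SE 0.20, limma adjusted p = 0.0155), and that of 213577_at to -0.59 (SE 0.12, limma adjusted p = 0.00934). Without SkMel-1 the call of 213562_s_at was lost (limma adjusted p = 0.0502). The 3 probe sets of SQLE correlated at 0.97 to 0.98 over the 12 arrays with line means subtracted.

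LSS, lanosterol synthase, closes 2,3-oxidosqualene into lanosterol, the first sterol of the route, and its values lay on the other side of DMSO. Its probe set 202245_at read 1171 in SkMel-1, 1174 in SkMel-5, 1121 in SkMel-28, 1154 in SkMel-19 and 708 in Malme3M at 250 nM, against 1042, 926, 927.5, 1127 and 380.4 with DMSO. All 5 lines were higher at 250 nM and the ranges overlapped, with Malme3M the lowest line in both groups. The log2 difference was 0.34 (SE 0.12, 95% interval 0.07 to 0.60, limma adjusted p = 0.059), which did not pass, and it was 0.20 without Malme3M, which had the largest difference, 0.88. The other LSS probe sets, 211018_at and 211019_s_at, were below the level filter and were not tested. Their signals over the 12 arrays lay between 14.2 and 85.0 and between 36.9 and 119.1, and at 250 nM 211018_at was lower in 4 of 5 lines while 211019_s_at was higher in 4 of 5.

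MSMO1, the methylsterol monooxygenase that starts the removal of the C4 methyl groups after lanosterol, had the largest fall of the 7. It read 1129 in SkMel-1, 1250.4 in SkMel-5, 1337 in SkMel-28, 326.5 in SkMel-19 and 391.8 in Malme3M at 250 nM, against 1735, 1819.6, 2291, 532 and 1268.5 with DMSO (209146_at, its only probe set). Each line was lower at 250 nM, by log2 -1.66 in Malme3M and by -0.77 to -0.54 in the other 4, and the group ranges overlapped. The mean log2 change came to -0.85 (SE 0.15, limma adjusted p = 0.00449), and -0.65 without Malme3M (limma adjusted p = 0.00201).

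INSIG1, the sterol sensor protein of the endoplasmic reticulum that retains SCAP and is itself a target of SREBP2, differed between probe sets in whether it passed. The brightest, 201627_s_at, read 738 in SkMel-1, 1678 in SkMel-5, 917.5 in SkMel-28, 750.3 in SkMel-19 and 471 in Malme3M at 250 nM, against 1191, 1864, 867, 907 and 1226.5 with DMSO. It was lower in 4 lines and slightly higher in SkMel-28, with overlapping ranges. Its log2 difference was -0.48 (SE 0.18, limma adjusted p = 0.0767) and -0.25 without Malme3M. The other probe sets, 201626_at and 201625_s_at, were lower in all 5 lines and fell by 0.63 (limma adjusted p = 0.0215) and by 0.47 (limma adjusted p = 0.0395) on the log2 scale, tested over all probe sets. Neither call held throughout: 201626_at did not pass without SkMel-1 (0.0692) or Malme3M (0.0618), and 201625_s_at did not pass without SkMel-1 (0.114), SkMel-19 (0.0924) or Malme3M (0.114), with no filter on low signal (0.0737) or with no trend (0.0595). With the mean of all 3 probe sets standing for the gene, INSIG1 passed (limma adjusted p = 0.0375), as it did with line as a random block (0.0451).

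SREBF2 encodes SREBP2, the transcription factor that drives the genes above. The probe set 201247_at read 754.5 in SkMel-1, 819 in SkMel-5, 553 in SkMel-28, 545 in SkMel-19 and 485 in Malme3M at 250 nM, against 803, 968, 547, 410.1 and 579.7 with DMSO. It was lower in 3 lines and higher in SkMel-28 and SkMel-19. The log2 difference of -0.03 had a 95% interval of -0.28 to 0.21 (limma adjusted p = 0.843), so a change of the size seen for MSMO1 lay outside the interval for this transcript. The second probe set, 201248_s_at, had a log2 difference of -0.14 (SE 0.12, limma adjusted p = 0.419). The arrays measure the transcript and not the cleaved protein.

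Taken probe set by probe set, 8 of the 14 tested were called lower and 0 higher, among 11986 probe sets of which 24.4% were called, 11.9% lower and 12.5% higher. Unadjusted p-values were under 0.05 for 11 of the 14, against 38.3% of all probe sets. The 8 are both of IDI1, all 3 of SQLE, the 1 of MSMO1 and 2 of the 3 of INSIG1. Probe sets of 1 gene share a transcript and are not independent. Their median log2 fold change was -0.44, against 0.03 over all probe sets.

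**Figure D2:**
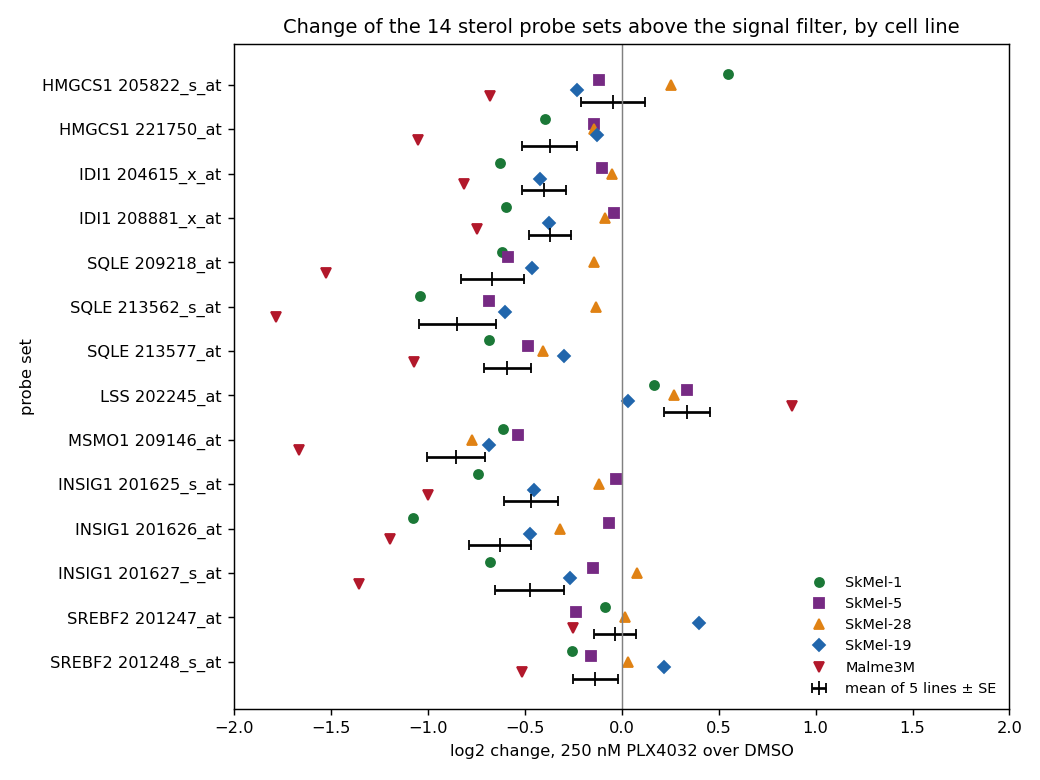
Log2 change at 250 nM PLX4032 against DMSO for the 14 tested probe sets, with 1 point per cell line and a black bar for the mean of 5 lines with its SE. The 3 SQLE, 2 IDI1 and the MSMO1 probe sets lie below 0 in all 5 lines, while 205822_s_at of HMGCS1 lies on both sides of 0.

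The lines differed in the size of the change. Malme3M had the largest absolute log2 change at 250 nM for 6 of the 7 genes, and SkMel-19 for the other, SREBF2. Over all genes tested Malme3M was the line with the largest absolute change for 26.3% and SkMel-19 for 17.9%. The median absolute log2 change over all genes was 0.26 in Malme3M, 0.25 in SkMel-1, 0.23 in SkMel-28 and SkMel-19 and 0.18 in SkMel-5. With 1 array per line and dose, the difference between lines in response was not tested. The share of all genes lower in all 5 lines was 16.6%, and 5 of the 7 genes had the same sign in every line, 4 of them lower, against 37.6% of all genes with 1 sign in every line. For none of the 7 did the signals at 250 nM and with DMSO separate without overlap, which 1.85% of all genes did.

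The lines also differed in level before any inhibitor was added. With DMSO, MSMO1 ranged 4.24-fold, highest in SkMel-28 and lowest in SkMel-19, a wider range than 84.3% of genes. HMGCS1 had a 2.98-fold range with the same highest and lowest lines, and SQLE a 2.61-fold range from SkMel-5, the highest, down to SkMel-19. LSS ranged 2.90-fold, highest in SkMel-19 and lowest in Malme3M. That range came from Malme3M, at a signal of 380.4, while the other lines lay between 926 and 1127. IDI1, INSIG1 and SREBF2 ranged 2.10-fold, 2.13-fold and 2.32-fold, wider than 44.4%, 46.1% and 54.3% of genes, and the ranges of SQLE, LSS and HMGCS1 were wider than 63.7%, 70.3% and 71.7%. The median range over all genes was 1.15 on the log2 scale, against 2.08 for MSMO1.

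In SkMel-19 and Malme3M the doses can be set side by side, but both are compared with the same DMSO array of each line. MSMO1 read 532 with DMSO, 326.5 at 250 nM and 345 at 1000 nM in SkMel-19, and 1268.5, 391.8 and 313 in Malme3M. With DMSO, 250 nM and 1000 nM in that order, SQLE read 1298, 938 and 809 in SkMel-19 and 1890.3, 648 and 558 in Malme3M. In the same dose order IDI1 read 1433, 1102.5 and 1074 in SkMel-19 and 1848, 1094 and 958 in Malme3M. Both doses lay below DMSO for these 3 genes in both lines, and most of the difference was present at 250 nM. With DMSO, 250 nM and 1000 nM, INSIG1 read 907, 750.3 and 536 in SkMel-19 and 1226.5, 471 and 501 in Malme3M. Over these doses HMGCS1 read 224, 204 and 208 in SkMel-19 and 326, 151 and 164 in Malme3M, by 221750_at. The other HMGCS1 probe set, 205822_s_at, read 138, 115.5 and 199.8 in SkMel-19 and 257, 156 and 101.3 in Malme3M, so at 1000 nM it lay above DMSO in SkMel-19 (log2 0.50) and below it in Malme3M (-1.25). At DMSO, 250 nM and 1000 nM LSS read 1127, 1154 and 1044 in SkMel-19, where 1000 nM lay below DMSO, and 380.4, 708 and 632 in Malme3M. Over the same doses SREBF2 read 410.1, 545 and 411 in SkMel-19 and 579.7, 485 and 529 in Malme3M, with no common direction.

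At 1000 nM, SQLE fell 2.31-fold (log2 fold change -1.21, SE 0.27, limma adjusted p = 0.0433) and IDI1 1.60-fold (-0.68, SE 0.15, limma adjusted p = 0.0405), with n = 2 lines. Thus 2 of 7 genes were called lower and 0 higher, while 11.2% of all genes were called, 5.89% lower and 5.29% higher. At an unadjusted p under 0.05 there were 4 of the 7, all lower, against 32.2% of all genes. MSMO1 (-1.29, SE 0.31, limma adjusted p = 0.0503) and INSIG1 (-1.01, SE 0.25, limma adjusted p = 0.0519) had log2 differences of similar size that did not pass. HMGCS1 (-0.52), LSS (0.30) and SREBF2 (-0.06) did not pass either. These 2 calls depend on the processing: 0 of the 7 were called with no filter on low signal or with quantile normalization, and 4 with arrays centred on their median.

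At 250 nM in the same lines and the same fit 0 of 7 genes were called by limma after adjustment, while 11.3% of all genes were called, 5.36% lower and 5.98% higher. The same unadjusted threshold was met by 4 of the 7, all lower, and by 32.7% of all genes. The log2 differences were -1.17 for MSMO1, -0.995 for SQLE, -0.81 for INSIG1, -0.59 for HMGCS1, -0.56 for IDI1, 0.45 for LSS and 0.07 for SREBF2, with limma adjusted p-values of 0.0601 to 0.807. Between 1000 nM and 250 nM, limma called 0 of 7178 genes after adjustment, a share of 0%, with 75 genes (1.04%) and 0 of the 7 at an unadjusted p under 0.05. The differences, 1000 nM minus 250 nM, lay between -0.21 for SQLE and 0.07 for HMGCS1, and the 95% interval for MSMO1 was -0.87 to 0.64, which leaves room for a sizeable difference either way.

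**Figure D3:**
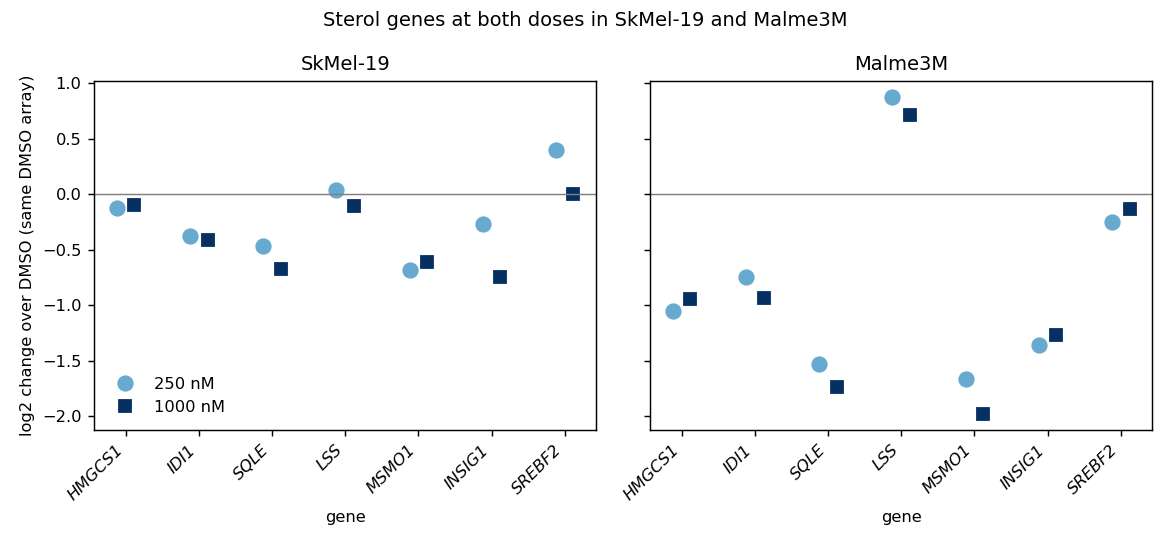
Log2 change against DMSO at 250 nM and 1000 nM PLX4032 in SkMel-19 and Malme3M for the 7 measured genes, 1 point per line and dose. By the probe set that stands for each gene, MSMO1, SQLE, IDI1, INSIG1 and HMGCS1 lie below 0 at both doses in both lines, with lower values in Malme3M than in SkMel-19 throughout.

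With the mean of each line subtracted, 5 of the 7 genes followed one profile over the 12 arrays. Their correlation with the mean of the 7 was 0.99 for SQLE, 0.97 for INSIG1 and IDI1, and 0.95 for MSMO1 and HMGCS1. SREBF2 correlated with it at 0.41 and LSS at -0.84. Each gene is part of that mean, the points share lines and control arrays, and the Malme3M arrays span the widest stretch, from 0.57 with DMSO, through -0.25 at 250 nM, to -0.33 at 1000 nM on the line-centred log2 scale. Among pairs, SQLE and MSMO1 correlated at 0.96, and LSS correlated with HMGCS1 at -0.93. The HMGCS1 values here are for 221750_at, whose correlation with the other tested probe set, 205822_s_at, was only 0.50.

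The 5 other genes with the profile most like that mean were FBXL14 (r = 0.987 over 12 arrays), NFYA (0.987), LASP1 (0.982), IGF2BP2 (0.982) and CTDSP1 (0.982). FBXL14 encodes a substrate receptor of a ubiquitin ligase, NFYA a subunit of the CCAAT-binding factor NF-Y, LASP1 an actin-binding protein, IGF2BP2 an RNA-binding protein and CTDSP1 a phosphatase of the RNA polymerase tail. These 5 genes were picked on the same arrays for likeness to a profile that is lower with PLX4032 in every line. Lower values at 250 nM therefore follow from the choice and are no separate result. IGF2BP2 (log2 fold change -0.59, limma adjusted p = 0.00541) and LASP1 (-0.32, limma adjusted p = 0.0373) fell at 250 nM. The LASP1 call was lost under 7 of the 16 alternatives that kept line as a block, among them leaving out any line but SkMel-5 (limma adjusted p-values of 0.0514 to 0.107). FBXL14 (-0.42), NFYA (-0.31) and CTDSP1 (-0.27) had lower means that did not pass. FBXL14 passed with all 12 arrays in 1 fit (limma adjusted p = 0.0494) and CTDSP1 with line as a random block (0.0468).

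Among the other genes of cholesterol synthesis 1 passed the test. Of 16 listed, 13 had a named probe set and 11 were tested, of which 1 was called lower and 0 higher at 250 nM (3 lower and 0 higher by the unadjusted p), beside 13.1% of all genes called lower and 15.2% called higher, and their median log2 fold change was -0.15. The one was LBR, a nuclear envelope protein that also carries sterol C14 reductase activity, which fell 1.49-fold (-0.57, SE 0.11, limma adjusted p = 0.0075) and was lower in all 5 lines. The means of 7 of the 11 were below 0 and those of 4 above.

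Of 12 other genes of sterol sensing, 10 were tested, with 1 lower and 1 higher, beside 13.1% and 15.2% of all genes, and a median of 0.02. PAQR3, a Golgi membrane protein known to anchor SCAP, fell 1.57-fold (log2 fold change -0.65, limma adjusted p = 0.00514), and RNF139, a ubiquitin ligase of the endoplasmic reticulum, rose 1.26-fold (0.33, limma adjusted p = 0.0425). The RNF139 call was lost under 7 of the 16 alternatives that kept line as a block, among them leaving out any line but SkMel-5. The limma adjusted p-values there were 0.0567 to 0.138. SREBF1, the gene of the related factor SREBP1, had a mean difference of 0.35 (SE 0.21, limma adjusted p = 0.236) and was lower in 1 of 5 lines, SkMel-5. It was 0.19 without SkMel-28, 0.23 without Malme3M and 0.62 without SkMel-5, where it passed (limma adjusted p = 0.0192). INSIG2, the paralog of INSIG1, had -0.42 (SE 0.19, limma adjusted p = 0.129), and -0.20 without Malme3M.

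The called genes of uptake and transport lay on both sides. Of 16 listed, 12 were tested, with 2 called lower and 3 higher, beside 13.1% and 15.2% of all genes, and a median log2 fold change of 0.15. LRP8, the apolipoprotein E receptor 2, read 310.2 in SkMel-1, 525.6 in SkMel-5, 689.7 in SkMel-28, 409 in SkMel-19 and 239 in Malme3M at 250 nM, against 840.5, 1029, 1235, 878 and 719.5 with DMSO. All of its 250 nM signals lay below all of its DMSO signals, and it fell 2.24-fold (-1.16, SE 0.12, limma adjusted p = 0.000397). VLDLR, the very low density lipoprotein receptor, rose 1.55-fold (0.64, limma adjusted p = 0.014), SCARB1, the HDL receptor, rose 1.28-fold (limma adjusted p = 0.0171), and NPC2, which carries cholesterol out of lysosomes, rose 1.21-fold (limma adjusted p = 0.00955). Each of these 3 was higher in all 5 lines, but VLDLR did not pass without SkMel-19 (limma adjusted p = 0.0529). SCARB1 did not pass without SkMel-1, SkMel-28 or SkMel-19 or with the mean of its probe sets (limma adjusted p-values of 0.0551 to 0.212). The second gene called lower was TMEM97, a regulator of the lysosomal transporter NPC1, at -0.22 (limma adjusted p = 0.0389), named after its value was seen. Its call was lost under 8 of the 16 alternatives that kept line as a block, the omission of any 1 line included.

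Of 8 genes of cholesterol efflux and LXR targets, 5 were tested and 0 were called by limma, beside 13.1% of all genes called lower and 15.2% higher. At an unadjusted p under 0.05 there was 1, against 41.4% of all genes. ABCA1 and ABCG1 were below the level filter and were not tested. The log2 values were 0.17 for APOE and 0.21 for LPCAT3, and the median was 0.10. APOE passed without SkMel-5 (0.23, limma adjusted p = 0.0373). In fatty acid synthesis, the branch governed mainly by SREBP1, 10 of 13 genes were tested, 3 fell and 2 rose, beside 13.1% and 15.2% of all genes, and the median was -0.02. ELOVL6, an elongase of saturated fatty acids, fell 2.11-fold (-1.07, SE 0.11, limma adjusted p = 0.000435), FASN, fatty acid synthase, fell 1.69-fold (-0.75, SE 0.13, limma adjusted p = 0.00348), and PNPLA3, a lipid hydrolase, fell by 0.73 on the log2 scale. PNPLA3 had signals as low as 2 at 250 nM in SkMel-1, under the filter level of 85.7, and with signals raised to that level its change was -0.38 and did not pass (limma adjusted p = 0.0536). LPIN1, a phosphatidate phosphatase, rose 1.84-fold (0.88, SE 0.12, limma adjusted p = 0.00165), and SCD, the delta-9 desaturase, rose 1.40-fold (0.49, SE 0.06, limma adjusted p = 0.000728). Each of these 5 moved the same way in all 5 lines.

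In the branches that draw isoprenoids from the same route, 11 of 12 genes were tested, with 2 lower and 2 higher, beside 13.1% and 15.2% of all genes, and a median of -0.02. RABGGTB, a subunit of the enzyme that prenylates Rab proteins, fell 1.42-fold (-0.51, limma adjusted p = 0.00638), and ICMT, which methylates prenylated proteins, fell 1.17-fold (limma adjusted p = 0.0299). PDSS2, a subunit of the enzyme that makes the side chain of coenzyme Q, rose 1.27-fold (limma adjusted p = 0.0345), and DHDDS, a subunit of the enzyme that makes dolichol precursors, rose 1.25-fold (limma adjusted p = 0.0179). Apart from RABGGTB these calls were lost when 1 line was left out: DHDDS without SkMel-19 or Malme3M, PDSS2 on leaving out any line except SkMel-5, and ICMT on leaving out any line except SkMel-28. With the mean of its probe sets ICMT was at -0.033.

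**Figure D4:**
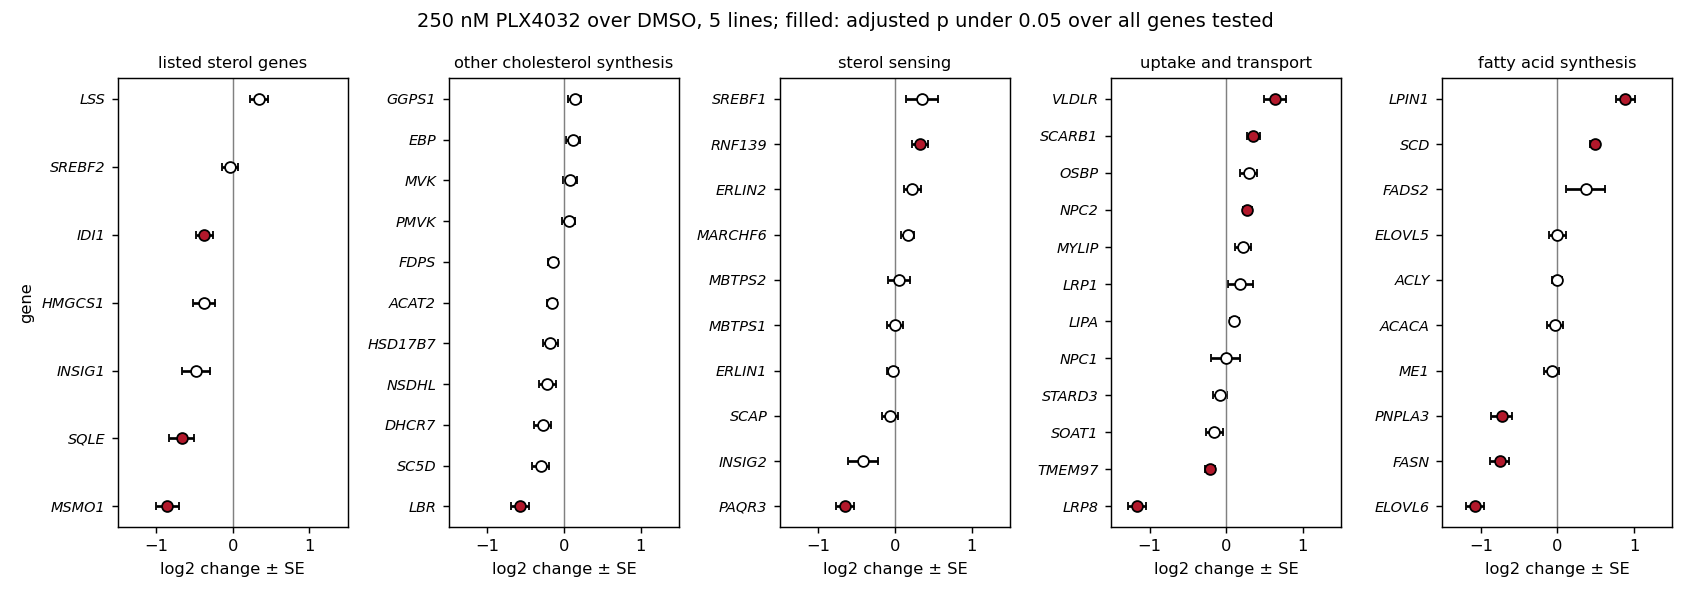
Log2 change at 250 nM PLX4032 against DMSO with its SE over 5 lines, for every tested gene of the sterol, synthesis, sensing, uptake and fatty acid lists, 1 panel per list, with filled points for genes under a limma adjusted p of 0.05. Most genes lie near 0, MSMO1 at -0.85 lies lowest of the 7 sterol genes, and LRP8 at -1.16 and ELOVL6 at -1.07 lie lower than any of them.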

How the data were processed

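The deposited table holds 1 linear intensity value per probe set and array for 22277 probe sets on 12 arrays, which the authors made with GCOS, software by Affymetrix, according to the submitters' processing notes. The sources used here give no probe summary method. Each array's mean between its lowest and highest 2% of values was 500.1, so scaling had been done before deposit.

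The analysis used log2(value + 12). The 62 control probe sets were set aside, and of 22215 others 19064 carried 1 gene symbol, 1043 several and 2108 none. For each gene the brightest probe set on average stood for it, and genes under the 40th percentile of mean level (log2 6.61, a signal of 85.7) were left out. Fold changes are on this log2 scale and understate those of dim genes.

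limma 3.58.1 in R 4.3.3 was run with cell line as a block, a trend in the prior variance and Benjamini-Hochberg adjustment over all genes or probe sets tested, at 0.05. The 250 nM fit used 10 arrays, and those with 1000 nM the 6 arrays from Malme3M and SkMel-19. Arrays were paired by the line that the labels name. Deviations from group means correlated at 0.898 to 0.931 within lines and at no more than -0.135 between lines. Subtracting the group means by itself pushes the values between lines below 0, so their sign is no check of the pairing. The genes, lists, motifs and markers were chosen with earlier results of these data known. Named are all listed sterol genes, 9 further genes where measured, and in each other list up to 4 called genes of largest change, or 2 of smallest p where none was called, and the 5 genes most like the sterol mean. The gene-level limma fits were tried on simulated data with changes of known size, and the other steps were not. Plots used matplotlib 3.10.9 (Python 3.11.15).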

Additional observations from a re-analysis of the deposited data

Results flagged for a closer look

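In groups of 5 lines, the highest or lowest line was set against the others by Dixon's criterion, for levels at 250 nM, levels with DMSO and changes at 250 nM of 41 probe sets. Of 123 such groups, 8 passed, and chance alone passes about 1 in 20. Over all genes, 5.52% had a line that stood apart in its change at 250 nM. Malme3M stood apart in the log2 change of MSMO1 (-1.665, with the other 4 lines between -0.77 and -0.54) and of HMGCS1 (-1.052, with the others between -0.39 and -0.13). Malme3M was also far below the other lines in the log2 level of LSS, at 9.493 at 250 nM and 8.616 with DMSO. RNF139 was lowest in SkMel-28 at 250 nM, at 9.472, and ELOVL6 was lowest in SkMel-5 at 250 nM (5.626) and with DMSO (6.771). DUSP6 at 250 nM was highest in SkMel-5, at 9.376, a signal of 652.3.

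Some transcripts lay on one side of DMSO at both doses in Malme3M and on the other side at both doses in SkMel-19. The mean log2 change over both doses, Malme3M minus SkMel-19, was -0.3922 for SREBF2 by 201247_at and -0.5735 by 201248_s_at, and 0.5231 for LSS by 211019_s_at, which lies below the level filter. INSIG2 differed by -1.377, with a mean change of -1.21 in Malme3M and 0.16 in SkMel-19. With 1 array per line and dose these differences were not tested, and 14.3% of all genes tested lay on opposite sides in these lines.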

How the results depend on the processing

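MSMO1 and SQLE kept their calls at 250 nM under 16 of 17 alternatives each, and lost them only with no replicate block. With no replicate block 13 genes were called at 250 nM (2029 with it), 16 probe sets (2923 with it) and 0 in either 2-line comparison, and 0 of the sterol genes or probe sets. Leaving out 1 line gave 1288 to 1836 genes called at 250 nM (1288 without SkMel-19, 1339 without Malme3M), 2 to 3 sterol genes lower and 0 higher, and 1812 to 2587 probe sets, with 3 to 8 sterol probe sets lower (3 without SkMel-1, 5 without SkMel-19, 4 without Malme3M). The median log2 change of the 7 sterol genes was -0.25 (-0.37 with all lines) without Malme3M. With line as a random block 4 sterol genes were called lower, INSIG1 (limma adjusted p = 0.0451) added, and 1 higher, LSS (limma adjusted p = 0.0418). The sterol probe sets called lower were 5 with no filter and 5 with no trend in the prior variance.

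In the 1000 nM comparison 803 genes were called, 445 with no filter, 460 with signals raised to the filter level and 530 with no trend. Of the sterol genes 2 were lower, 0 under those 3 alternatives and with quantile normalization, and 4 with the filter at the 60th percentile, with arrays centred on the median or with the mean of all probe sets. At 250 nM in the same lines 814 genes were called, 430 with no filter and 468 with signals raised, and the mean of all probe sets gave 1 sterol gene lower. Between the doses every alternative run called 0 genes. Leaving out a line there leaves 1 line and no test.

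SREBF2 (201247_at, for the gene and the probe set) ranged from -0.14 to 0.022 when 1 line was left out, above 0 without SkMel-5 or Malme3M, and turned to -0.037 for 250 nM in 2 lines with the mean of all probe sets. HMGCS1 by 205822_s_at ranged from -0.19 to 0.11, above 0 without SkMel-19 or Malme3M, and LPCAT3 turned to -0.012 with the mean of all probe sets. Of the 25 other named genes called at 250 nM, 21 lost the call with no replicate block and 9 lost it under at least 1 of the 16 other alternatives (RNF139, SCARB1, VLDLR, TMEM97, PNPLA3, PDSS2, DHDDS, ICMT and LASP1). The cause of these moves was not tested. No depth is known for arrays, and their number limits the precision.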
